A study of Sus scrofa with 6 samples.

Results

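Lysosomal cathepsins and lysosome-associated membrane proteins were followed on 6 porcine arrays, 3 of control and 3 of ischemia kidneys, through the array probes that carry their names. Cathepsins are proteases that mature in the acid interior of the lysosome, where they degrade proteins delivered by endocytosis and autophagy. Most are cysteine proteases of the papain family, cathepsin D is an aspartic protease, and the glycoproteins LAMP1 and LAMP2 line the inner face of the lysosomal membrane. In the kidney cortex lysosomes are abundant in proximal tubule cells, which take up filtered protein.

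The 10 genes considered were CTSB, CTSC, CTSD, CTSH, CTSK, CTSL, CTSS, CTSZ, LAMP1 and LAMP2. The name column of the array design held 6 of these symbols, among 5238 gene names in all, on 18 of the 43603 probes, with 5 probes for CTSB, 5 for CTSK, 3 for LAMP2, 2 each for CTSD and CTSH and 1 for CTSZ. Another 27 probes of these genes were identified through gene numbers, accessions, older names or descriptions, and these are described apart. They comprised 11 probes named CTSL1, 10 of CTSS, 2 of LAMP1, 2 of LAMP2 and 1 each of CTSB and CTSK. No probe for CTSC, the dipeptidyl peptidase that activates the serine proteases of immune cell granules, was identified by these routes. The record behind the CTSL1 probes is listed as CTSV, with CTSL, CTSL1 and CTSL2 as synonyms, in the RefSeq gene table used, which also lists a separate CTSL gene, so the array's own name was kept.

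The samples were total RNA of renal cortex from Large White pigs aged 3 months, each kidney from a different animal. The 3 control kidneys were sampled and frozen directly on removal. The 3 ischemia kidneys were clamped before removal and held clamped for 60 min at 37 °C. They were then rinsed with cold University of Wisconsin solution (a fluid for organ preservation), stored at 4 °C for 24 h and sampled with no reperfusion. Warm ischemia, the rinse and cold storage were therefore applied together and cannot be told apart, and no animal gave kidneys to both groups.

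Signal was well above background for 52.6% to 61.4% of spots per array, and no spot was saturated. Each of 3 slides held 1 control and 1 ischemia array, the control always at position 4 and the ischemia array always at position 3, so the effect of position cannot be told apart from that of ischemia. The share of spots above background differed more between slides than within them, at 52.6% and 52.9% on slide 1 and at 61.2% and 61.4% on slide 3. All 10 measured proximal tubule markers passed the detection filter, as did the 4 collecting duct and 3 loop and distal tubule markers measured, so these markers do not tell cortex from medulla. Each value is the log2 processed signal of a probe after subtraction of its array's 75th percentile, so 0 marks the brightness at that percentile. In bulk tissue, fewer cells of a type and less RNA per cell cannot be told apart.

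Of the 10 probe sequences given here, those with capitals were chosen because they read the conserved active site of the cysteine cathepsins, and the others because the results turn on them or to show the remaining members. Each is 60 bases, 5′ to 3′, as in the scanner files. The first is the CTSB probe with the widest gap between 1 ischemia kidney and the controls, and the next is a CTSH probe whose groups do not overlap.

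CTSB, probe A_72_P550091: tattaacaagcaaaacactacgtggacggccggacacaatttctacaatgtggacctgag
CTSH, probe A_72_P609994: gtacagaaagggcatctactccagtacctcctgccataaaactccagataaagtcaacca

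In the next 4, capitals mark a match to AAC, any 3 bases and then TGGGG, the stretch that encodes the active-site asparagine of papain-family proteases and the residues after it. The letters occurred on the probe strand in 42 of 43603 probes (0.0963%) and on either strand in 72 (0.165%). They occurred in 4 of the 45 probes of the genes considered, 1 each of CTSH, CTSK, CTSS and CTSL1. Despite the shared stretch, the longest run of identical bases between probes of different member genes was 15 of 60, over 847 pairs.

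CTSH, probe A_72_P035971: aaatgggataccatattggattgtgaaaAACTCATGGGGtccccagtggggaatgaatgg
CTSK, probe A_72_P146366: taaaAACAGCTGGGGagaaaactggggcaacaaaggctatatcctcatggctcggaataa
CTSS, probe A_72_P765214: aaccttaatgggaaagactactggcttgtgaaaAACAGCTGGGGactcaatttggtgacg
CTSL1, probe A_72_P647599: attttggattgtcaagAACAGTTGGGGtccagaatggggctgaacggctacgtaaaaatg

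A further CTSS probe covers the stretch around the catalytic cysteine, where capitals mark TG, 1 base of any kind, GG, any 4 bases, TG, 1 base of any kind and TGG, present on the probe strand in 16 probes of the array (0.0367%) and on either strand in 33 (0.0757%). The aspartic protease CTSD, the carboxypeptidase CTSZ and LAMP2 carry neither stretch in the probes shown after it. The LAMP2 probe shown reads the end of the coding sequence, and 1 of the records listed for it is described as the C form of the protein, whose short cytoplasmic tail differs from those of the A and B forms.

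CTSS, probe A_72_P736553: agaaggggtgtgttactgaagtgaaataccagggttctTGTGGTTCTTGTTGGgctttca
CTSD, probe A_72_P772656: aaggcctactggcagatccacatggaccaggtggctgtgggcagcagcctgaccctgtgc
CTSZ, probe A_72_P157891: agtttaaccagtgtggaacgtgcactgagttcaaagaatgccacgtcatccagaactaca
LAMP2, probe A_72_P708395: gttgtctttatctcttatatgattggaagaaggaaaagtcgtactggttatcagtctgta

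Across the 18 probes, all of which passed the detection filter, no member differed between ischemia and control kidneys at an adjusted p under 0.05. CTSB, CTSD, CTSH, CTSZ and LAMP2 had lower means in ischemia kidneys on all of their 13 probes, and CTSK had higher means on all of its 5. CTSZ changed side when arrays were centred on their median. CTSZ and 1 LAMP2 probe did so in the authors' deposited table, which held 9 of the 18 probes. Leaving out 1 kidney changed the side of 1 CTSB, 1 CTSK and the CTSZ probe. In the whole fit 0% of 25013 tested probes passed the adjusted threshold as higher and 0.004%, a single probe that is no member, as lower. At an unadjusted p under 0.05 there were 0 higher and 1 lower member probes, a CTSH probe, where 2.99% of all tested probes were higher and 3.31% lower. The 3 ischemia values all lay below the 3 control values on 2 member probes, both of CTSH, and all above on 0, against 5.02% and 5.89% of all tested probes. The median difference of the 18 probes was -0.27, and that of all tested probes was -0.042, with 55.8% of all tested probes lower.

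**Figure D1:**
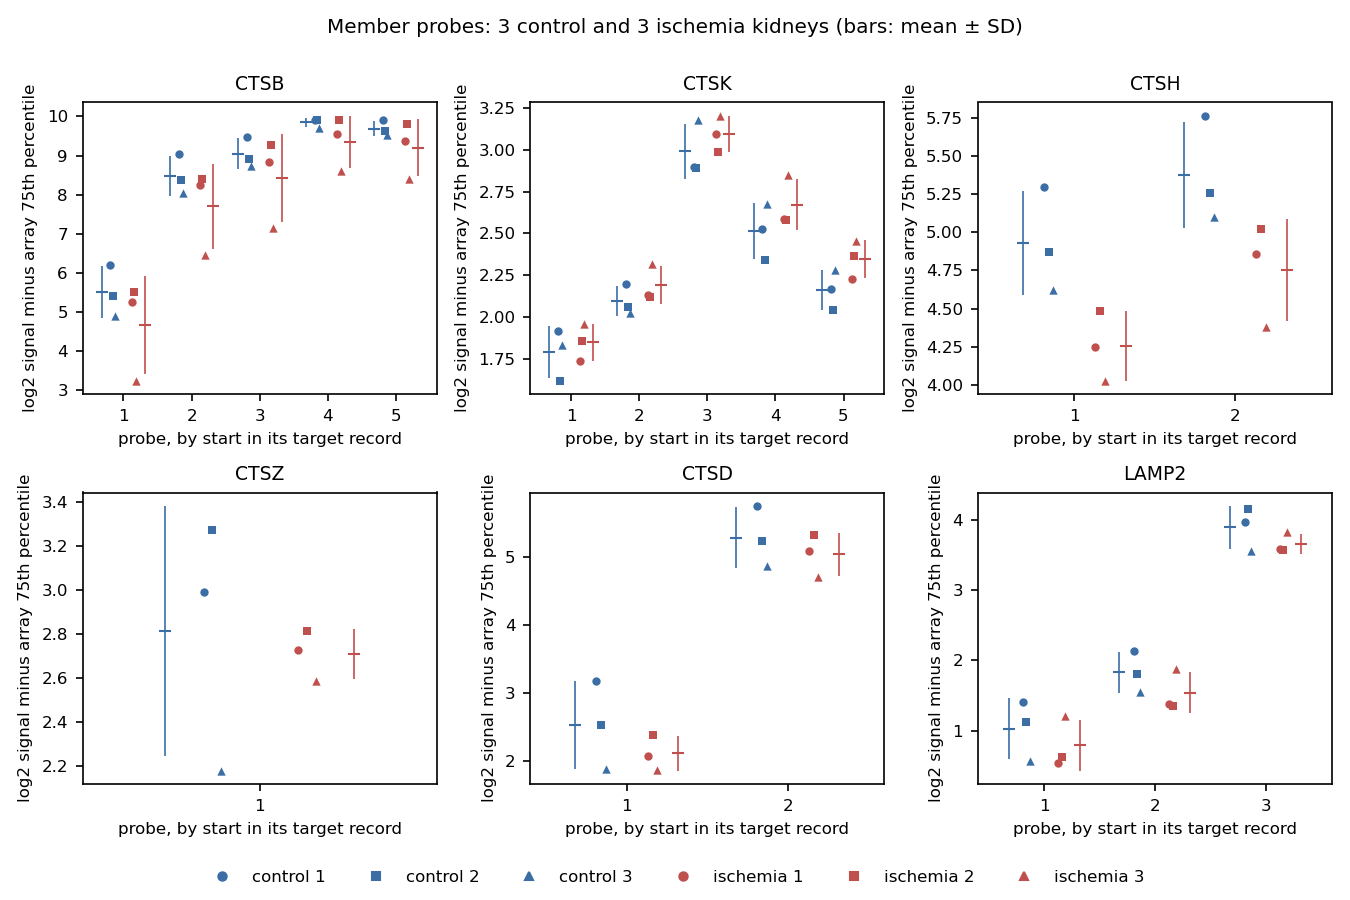
Values of the 18 member probes in the 3 control (blue) and 3 ischemia (red) kidneys, 1 panel per gene, on the log2 scale relative to the 75th percentile of each array, with each group's mean ± SD as a bar beside the points. The 2 CTSH probes have every ischemia kidney below every control kidney, and ischemia kidney 3 lies far below the other 5 kidneys on all 5 CTSB probes.

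CTSB, a cysteine protease with both endopeptidase and dipeptidyl carboxypeptidase activity, stood lower in ischemia kidneys on every probe, and 1 kidney carried that gap. On the probe that starts at base 196 of its target record, the control kidneys read 6.21, 5.41 and 4.91 and the ischemia kidneys 5.26, 5.51 and 3.25. Ischemia kidney 3 was the lowest of the 6 by a wide margin, while kidneys 1 and 2 lay inside the control range. The difference was -0.84 ± 0.63 (SE, 3 against 3; 95% interval -2.31 to 0.64; limma adjusted p = 0.91).

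The same order of ischemia kidneys was read by the other 4 CTSB probes. That at base 1199 read 9.04, 8.37 and 8.05 in control and 8.26, 8.39 and 6.46 in ischemia kidneys, and the one at base 1525 read 9.49, 8.92 and 8.74 against 8.85, 9.27 and 7.16. Their differences were -0.78 ± 0.54 and -0.63 ± 0.54. Ischemia kidney 3 was again lowest, with the groups overlapping through the other kidneys. At base 1813 CTSB read 9.92, 9.92 and 9.70 in control and 9.54, 9.90 and 8.59 in ischemia kidneys, a difference of -0.50 ± 0.34. The probe at base 1873, whose start refers to another record, read 9.91, 9.63 and 9.53 against 9.38, 9.82 and 8.40, a difference of -0.49 ± 0.37. These 2 probes share 40 bases and are not independent readings. Over the 5 probes the limma adjusted p ran from 0.91 to 0.93. Without ischemia kidney 3 the CTSB differences lay between -0.16 and 0.0086.

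The gap in ischemia kidney 3 differed between CTSB probes. Its value minus the control mean was -2.26 at base 196, -2.03 at base 1199 and -1.89 at base 1525, which are 4.80-fold, 4.08-fold and 3.72-fold lower signals. The 2 overlapping probes nearest the 3′ end gave -1.25 and -1.29, or 2.38-fold and 2.44-fold lower. The probe at base 196 was also the dimmest, with a control mean of 5.51 against 8.49 to 9.85 on the others, and the part of position and of brightness was not tested. The control kidneys also differed more among themselves at base 196 (SD 0.66) than at bases 1813 and 1873 (SD 0.12 and 0.20). Only 0.3% of tested probes lay as far below the control mean in this kidney as the probe at base 196, and 1.85% as far as the one at base 1813. Every CTSB probe was 2-fold or more lower in ischemia kidney 3, as were 3.76% of all tested probes, and no other member probe was. In ischemia kidneys 1 and 2 no member probe was 2-fold lower, against 2.77% and 5.7% of all tested probes. None was 2-fold higher in ischemia kidneys 1, 2 or 3, against 2.13%, 2.77% and 2.88%. The 6th CTSB probe, found through its description and starting at base 388 of its record, stayed near background on every array (-6.70 to -6.00) and was not tested.

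**Figure D2:**
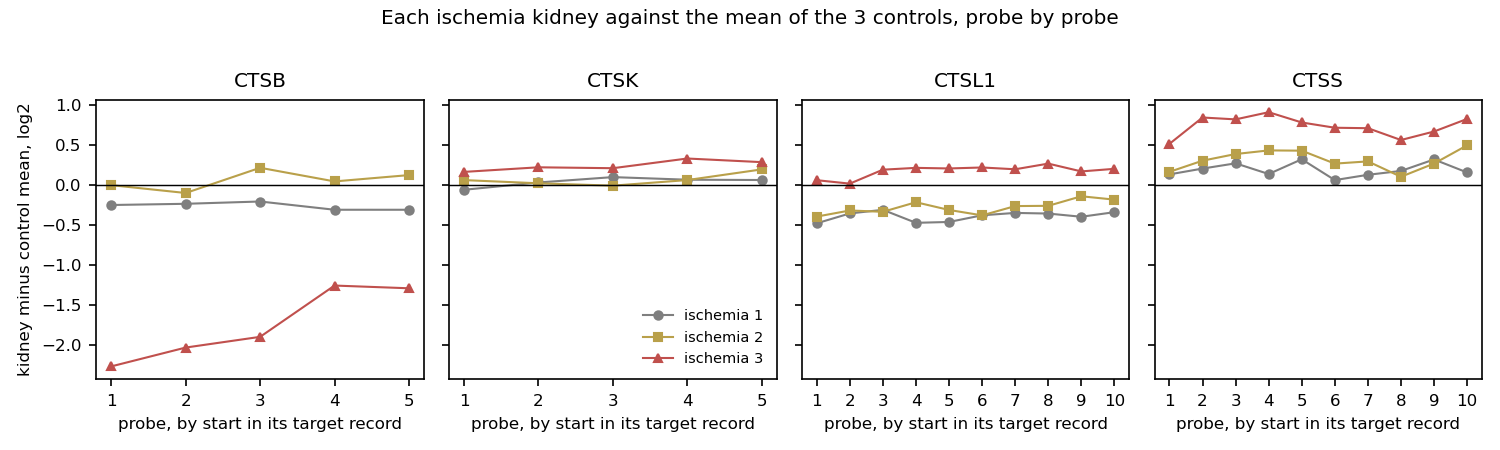
Each ischemia kidney minus the mean of the 3 control kidneys (log2, vertical axis) for the tested probes of CTSB, CTSK, CTSL1 and CTSS, ordered by the start listed in the files (horizontal axis; starts of 1 gene can refer to different records). Ischemia kidney 3 (red) lies at -2.26 to -1.25 on CTSB, at 0.52 to 0.91 on CTSS and at 0.021 to 0.27 on CTSL1.

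CTSH, which acts mainly as an aminopeptidase, was the one gene among the 18 probes whose groups did not overlap. At base 879 CTSH read 5.30, 4.87 and 4.62 in control and 4.25, 4.48 and 4.03 in ischemia kidneys. Every ischemia kidney was below every control kidney, the closest pair being ischemia kidney 2 and control kidney 3. The difference was -0.68 ± 0.25 (SE, 95% interval -1.25 to -0.099), a 1.60-fold lower signal, with limma adjusted p = 0.75. On the active-site probe at base 969 the control kidneys read 5.76, 5.25 and 5.10 and the ischemia kidneys 4.86, 5.02 and 4.38, again with no overlap. That difference was -0.62 ± 0.27 (95% interval -1.25 to 0.0092; limma adjusted p = 0.80). With arrays centred on their median the CTSH groups overlapped on both probes, with differences of -0.53 and -0.47. These CTSH probes share no run of identical bases longer than 7, but they read 1 transcript in the same RNA samples and are not separate evidence.

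Within slide 1 the CTSH probes differed by -0.81 and -0.74 between ischemia kidney 2 and control kidney 1. Within slide 2 they differed by -0.84 and -0.87, and within slide 3 by -0.37 and -0.25, so CTSH was lower in the ischemia kidney of every slide. With slide as a block both CTSH probes had an unadjusted limma p under 0.05, and the adjusted p was 0.43 and 0.49. In that fit 3.63% of tested probes were higher and 5.62% lower at an unadjusted p under 0.05, and 0% passed the adjusted threshold in either direction. Without ischemia kidney 3 the CTSH differences were -0.56 and -0.44, and neither had an unadjusted limma p under 0.05.

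Markers of proximal tubule cells had mostly lower means beside CTSB and CTSH. Of 15 listed markers 10 were on the array and tested, 8 with lower and 2 with higher means (PDZK1 at 0.14 and SLC5A1 at 0.085). Of the lower ones 5 had an unadjusted limma p under 0.05, as had 2.93% of all named genes tested, and none passed the adjusted threshold. Their summed signal, in units of each array's 75th percentile, was 651 to 837 in control and 519 to 620 in ischemia kidneys, with the lowest sum in ischemia kidney 3. SLC22A6, the organic anion transporter of the basolateral membrane, read 5.87, 5.41 and 5.70 in control and 5.37, 4.52 and 4.00 in ischemia kidneys. SLC34A1, also among the 5, differed by -0.64 on its brightest probe, though its second probe gave 0.35. Lower means were also found for 3 of 4 tested collecting duct markers (median difference -0.35). The 3 tested loop and distal tubule markers had higher means (0.077). None of these had an unadjusted limma p under 0.05. The part of the marker shifts in the CTSB and CTSH values was not tested.

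CTSD, the main aspartic protease of the lysosome, overlapped between groups on both probes. At base 885 it read 3.17, 2.52 and 1.88 in control and 2.08, 2.39 and 1.87 in ischemia kidneys, and at base 1467 it read 5.75, 5.23 and 4.86 against 5.09, 5.33 and 4.70. Control kidney 1 was highest and control kidney 3 lowest of the controls on both, and the spread among controls (SD 0.64 and 0.45) exceeded the differences. These were -0.41 ± 0.34 and -0.24 ± 0.29 (limma adjusted p = 0.93 and 0.94). Within slide 3 the sign was opposite, at 0.20 and 0.23 higher in the ischemia kidney.

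CTSZ, a carboxypeptidase also called cathepsin X, was read by 1 probe at 2.99, 3.27 and 2.18 in control and 2.73, 2.81 and 2.59 in ischemia kidneys. All 3 ischemia values fell inside the control range. The difference was -0.11 ± 0.30 (95% interval -0.82 to 0.61; limma adjusted p = 0.97), which leaves a change of either sign within the interval.

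In the reported scaling CTSK, the collagen-degrading protease best known from osteoclasts, differed by at most 0.19 between the group means on its 5 probes. With arrays centred on their median the 5 differences were 0.21 to 0.33. The CTSK probes held by the authors' deposited table gave 0.31 and 0.39 there, neither past the adjusted threshold. The active-site probe at base 885 read 1.92, 1.62 and 1.83 in control and 1.73, 1.85 and 1.96 in ischemia kidneys. At base 1324 it read 2.90, 2.89 and 3.18 against 3.09, 2.99 and 3.20. Ischemia kidney 3 was highest on all 5 CTSK probes, by small margins, and the groups overlapped on each.

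The remaining CTSK probes read 2.20, 2.06 and 2.03 against 2.13, 2.12 and 2.32 at base 1132, and 2.53, 2.34 and 2.68 against 2.59, 2.58 and 2.85 at base 1382. At base 1387 CTSK read 2.17, 2.04 and 2.28 against 2.23, 2.36 and 2.45. Neither group stood clear of the other on any of these. In the reported scaling the 5 differences ran from 0.059 to 0.19, with SE of 0.18 to 0.20. Their limma adjusted p was 0.94 to 0.97, and the widest 95% limits were -0.39 and 0.62. A 6th CTSK probe, found through its description, stayed near background on every array and was not tested.

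LAMP2, a heavily glycosylated membrane protein whose A form is the receptor of chaperone-mediated autophagy, had lower means on its 3 probes without separating the groups. At base 1258 LAMP2 read 1.41, 1.12 and 0.57 in control and 0.55, 0.62 and 1.21 in ischemia kidneys. The probe at base 1354, shown above, read 2.13, 1.81 and 1.55 against 1.39, 1.36 and 1.87, and the probe at base 1646 read 3.97, 4.15 and 3.55 against 3.58, 3.58 and 3.82. Ischemia kidneys 1 and 2 were below ischemia kidney 3 on each of these 3 probes, and kidney 3 was inside the control range. Kidneys 1 and 2 were also inside that range at base 1646, as was kidney 2 at base 1258. The differences were -0.24 ± 0.30, -0.29 ± 0.25 and -0.23 ± 0.23 (limma adjusted p 0.93 to 0.94). Without ischemia kidney 3 they were -0.46 to -0.31.

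Within each slide the direction over the 18 probes was uneven. Ischemia kidney 2 was below control kidney 1 on 15 of 18 probes on slide 1, where it was below on 50.8% of all tested probes. Ischemia kidney 3 was below control kidney 2 on 11 of 18 on slide 2, against 59.4% of all probes, and ischemia kidney 1 was below control kidney 3 on 10 of 18 on slide 3, against 49.5%. Control kidney 1 was the highest of the controls on 12 of 18 member probes and control kidney 3 the lowest on 14, against 44.2% and 47.0% of all probes. Leaving out control kidney 1 moved the median difference of the 18 probes from -0.27 to -0.11, leaving out control kidney 3 moved it to -0.46, and leaving out ischemia kidney 3 moved it to -0.11.

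**Figure D3:**
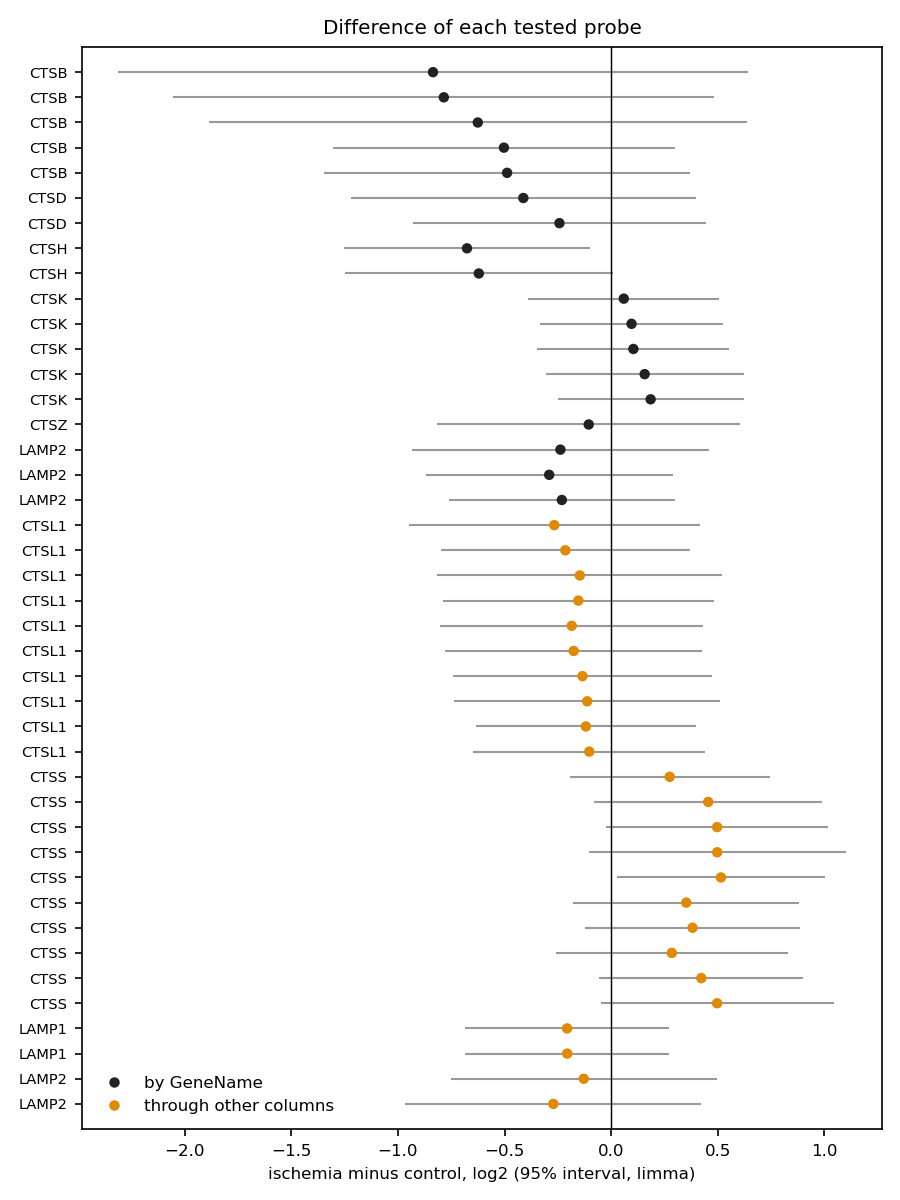
Ischemia minus control difference (log2, horizontal axis) with its 95% interval from limma for each of the 42 tested probes, 18 named by the array design (black) and 24 identified through other columns (orange). The CTSS probes lie to the right of 0 and the CTSB, CTSD and CTSH probes to the left, and apart from 1 CTSH and 1 CTSS probe each interval includes 0.

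The probes identified through other columns added CTSS, CTSL1 and LAMP1. CTSS, the protease that trims the invariant chain during antigen presentation and is abundant in macrophages, had higher means in ischemia kidneys on all 10 probes. The same held in the other scalings tried, though the authors' deposited table held only 1 of the 10 (0.56). The probe at base 917 read 0.63, 0.47 and 0.37 in control and 0.82, 0.92 and 1.28 in ischemia kidneys, with every ischemia kidney above every control. Its difference was 0.51 ± 0.21 (95% interval 0.026 to 1.00; limma adjusted p = 0.77), and it was the CTSS probe with an unadjusted p under 0.05.

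On the CTSS probe over the asparagine stretch, at base 1001, the control kidneys read 2.49, 2.36 and 2.44 and the ischemia kidneys 2.50, 2.70 and 3.15. On the probe over the cysteine stretch, at base 510, they read 2.24, 2.05 and 2.22 against 2.31, 2.34 and 2.69. Both separate the groups narrowly, ischemia kidney 1 lying close to control kidney 1, and on both ischemia kidney 3 was highest. The differences were 0.35 ± 0.23 and 0.27 ± 0.20. Over the 10 CTSS probes the differences ran from 0.27 to 0.51 and the limma adjusted p from 0.77 to 0.93.

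The groups did not overlap on 7 of the 10 CTSS probes, against the 5.89% of all tested probes that were higher without overlap, and 9 of 10 had the same sign on all 3 slides. These probes read 1 transcript in the same 6 RNA samples and 2 of their 45 pairs share at least 20 bases, so they are not separate evidence. Ischemia kidney 3 stood 0.52 to 0.91 above the control mean on CTSS, and without it the differences were 0.14 to 0.38.

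Macrophage markers had mostly higher means beside CTSS. Of 15 listed markers 7 were on the array and all were tested, 6 with higher means and 3 of those at an unadjusted limma p under 0.05, as were 3.74% of all named genes tested. None passed the adjusted threshold. The 3 were the scavenger receptor CD163 (difference 1.42 ± 0.32), the complement receptor VSIG4 (1.14 ± 0.21) and the complement component C1QA (0.59 ± 0.22). The 4 probes of CD163 ran from 0.79 to 1.58 and the 5 of VSIG4 from 0.53 to 1.14. CD14, the lipopolysaccharide co-receptor, was the marker with a lower mean (-0.42 ± 0.26), though its second probe gave 0.34. The summed signal of the 7 was 13.6 to 16.3 in control and 19.2 to 25.3 in ischemia kidneys, and ischemia kidney 3, the highest for CTSS, had the lowest sum of the 3 ischemia kidneys. Their part in the CTSS values was not tested.

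Lymphocyte markers had 3 of 6 tested genes with higher and 3 with lower means, none of the higher ones at an unadjusted limma p under 0.05, and a summed signal of 3.67 to 3.82 in control and 1.55 to 2.39 in ischemia kidneys. CD247, a signalling chain of the T-cell receptor complex, had the lowest difference of these (-1.33 ± 0.23) and made up most of the sum, and the other 5 summed to 0.663 to 0.804 in control and 0.634 to 1.01 in ischemia kidneys. Of the neutrophil markers MPO, S100A8 and S100A9 did not pass the detection filter, ELANE differed by -0.055 ± 0.23, and S100A12 differed by 4.74 ± 2.01 (limma adjusted p = 0.79). S100A12 was high in ischemia kidneys 1 and 2 (2.30 and 2.96) and at -5.18 in ischemia kidney 3, inside the control values of -5.95 to -3.65.

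CTSL1 was read by 10 tested probes, all with slightly lower means in ischemia kidneys, though 5 of the 10 changed sign when arrays were centred on their median, and the 1 of them that the authors' deposited table held was higher there. The active-site probe at base 961 read 8.02, 8.24 and 7.53 in control and 7.58, 7.61 and 7.95 in ischemia kidneys. Ischemia kidney 3 and control kidneys 1 and 2 were high, the other 3 kidneys low, and the groups overlapped. The 10 differences were -0.27 to -0.10, with limma adjusted p of 0.94 to 0.96. Of the 55 pairs among the 11 CTSL1 probes, 11 share at least 20 bases. The 11th was well above background on 1 array and was not tested.

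LAMP1, which together with LAMP2 makes up much of the protein of the lysosomal membrane, was read by 2 probes. That at base 1405 read 4.11, 3.93 and 3.65 in control and 3.70, 3.80 and 3.58 in ischemia kidneys. That at base 1930 of another record read 8.84, 8.73 and 8.67 against 8.29, 8.76 and 8.58. Ischemia kidney 1 was lowest on the second and the groups overlapped on both. Both LAMP1 differences were -0.21 ± 0.20 (limma adjusted p = 0.94), and both were above 0 in the authors' deposited table, at 0.073 and 0.050. The 2 further LAMP2 probes differed by -0.13 ± 0.27 and -0.27 ± 0.30, and on each ischemia kidney 3 was the highest of the 6.

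**Figure D4:**
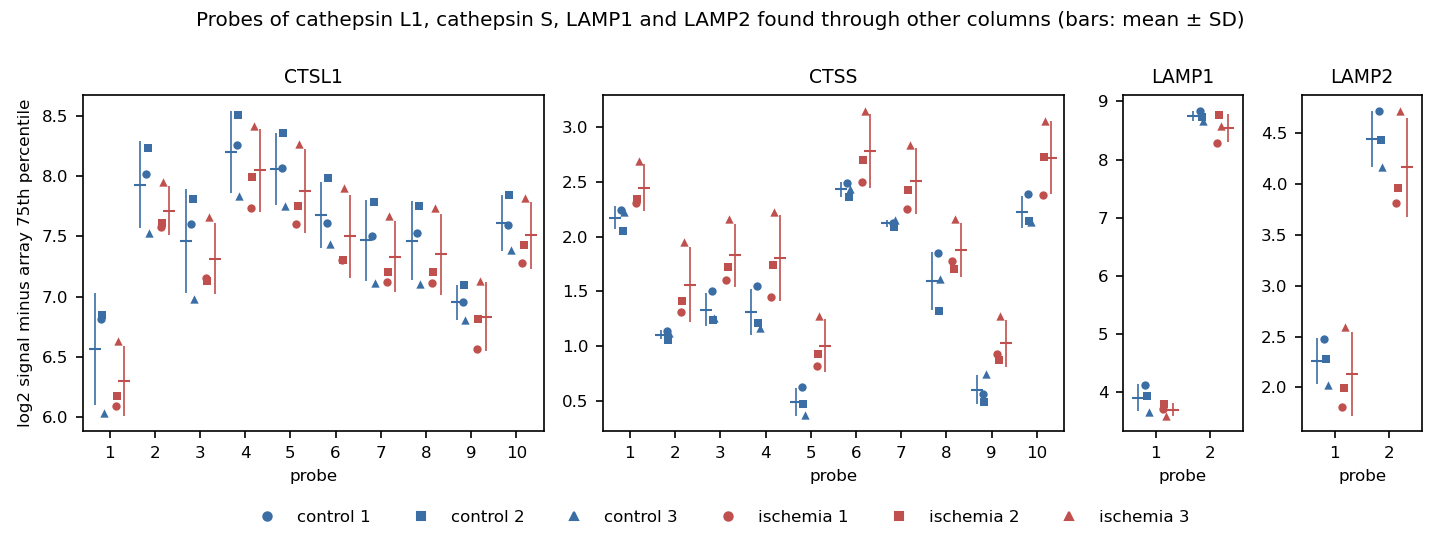
Values of the tested CTSL1, CTSS and LAMP1 probes and of 2 more LAMP2 probes, identified through columns other than the name column, in 3 control (blue) and 3 ischemia (red) kidneys, with mean ± SD bars, on the log2 scale relative to the 75th percentile of each array. On the CTSS probes ischemia kidney 3 (red triangles) is the highest of the 6 kidneys, and on the CTSL1 probes it lies within or just above the control range.

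The rest of the lysosomal system was described through lists of genes, each gene by its brightest probe. Among all 4089 named genes tested, 0% passed the adjusted threshold as higher and 0% as lower. At an unadjusted p under 0.05, 3.74% were higher and 2.93% lower, groups did not overlap for 7.65% (higher) and 4.18% (lower), and the median difference was 0.016. No listed gene passed the adjusted threshold.

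CTSA, the serine carboxypeptidase that protects lysosomal sialidase and beta-galactosidase, was the other cathepsin measured. It read 8.22, 7.79 and 7.91 in control and 7.60, 7.78 and 6.69 in ischemia kidneys. All ischemia kidneys were below all controls, kidney 2 barely and kidney 3 by the most. The difference was -0.61 ± 0.32 (limma adjusted p = 0.87), and a second CTSA probe gave -0.996. Without ischemia kidney 3 the difference was -0.28.

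Acid hydrolases and their activators had 19 of 41 listed genes tested, 3 with higher and 16 with lower means. Of all named genes tested, 47.3% had lower means. The median difference of the list was -0.18, which ran from -0.32 to 0.011 over the settings and was above 0 in the authors' deposited table. The 1 gene of the list with an unadjusted limma p under 0.05 was NEU1, the lysosomal sialidase that CTSA protects. NEU1 read 3.26, 3.14 and 3.11 in control and 2.57, 2.95 and 2.11 in ischemia kidneys, a difference of -0.63 ± 0.25 (limma adjusted p = 0.77). Ischemia kidney 3 was lowest and no kidney overlapped the other group. HEXA, the alpha chain of beta-hexosaminidase, differed by -0.50 ± 0.25, and the cholesterol carrier NPC2 by -0.30 ± 0.20. On the higher side, the hyaluronidase HYAL2 differed by 0.31 ± 0.26, the sulfatase GALNS by 0.14 ± 0.20 (its 4 probes ran from -0.74 to 0.14) and the beta-glucuronidase GUSB by 0.020 ± 0.32. ACP5 and HYAL1, lower on their brightest probes, each had another probe that was higher (0.24 and 0.14).

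The vacuolar proton pump, which acidifies the lysosome, had 9 subunits tested, 5 higher and 4 lower, with a median difference of 0.10 that was -0.033 without ischemia kidney 2. ATP6V1F differed by 0.45 ± 0.30, ATP6V0A2 by 0.24 ± 0.26 (its 2 probes ran from -0.019 to 0.24), ATP6V1H by 0.22 ± 0.20 and, on the lower side, ATP6V0E1 by -0.17 ± 0.20, ATP6V1C2 by -0.13 ± 0.35 and ATP6V1A by -0.021 ± 0.30. No subunit had an unadjusted limma p under 0.05. Of the cystatins and related inhibitors of cysteine cathepsins, 3 were tested. CST7 differed by -0.15 ± 0.25, CST3 by -0.12 ± 0.27 and CSTB by -0.0066 ± 0.24. Their median of -0.12 was above 0 with median centring (0.026), in the authors' deposited table (0.12) and without ischemia kidney 1 (0.048).

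Receptors and adaptors that carry enzymes to the lysosome had 6 genes tested, 2 higher and 4 lower, with a median difference of -0.036. This median ran from -0.17 to 0.17 over the settings. Those in which it was above 0 included median centring (0.11) and the authors' deposited table. IGF2R, the cation-independent mannose 6-phosphate receptor, read 5.04, 5.05 and 5.11 in control and 4.93, 4.83 and 4.91 in ischemia kidneys. The groups did not overlap, but the difference was small, at -0.17 ± 0.17. The sorting receptor SORT1 differed by -0.11 ± 0.24 and the sorting nexin SNX1 by 0.093 ± 0.20, while M6PR, the smaller mannose 6-phosphate receptor (-0.034 ± 0.20), and the early endosome GTPase RAB5A (0.020 ± 0.24) were closer to 0. Of other lysosomal membrane proteins 4 were tested, with a median of -0.074 that ran from -0.23 to 0.13 over the settings. The settings in which it was above 0 included median centring (0.075), quantile normalization (0.021), normexp (0.0031) and the authors' deposited table. The cholesterol transporter NPC1 differed by 0.20 ± 0.24 and OSTM1, the partner of the chloride exchanger CLCN7, by -0.10 ± 0.23, as did TMEM192 (-0.098 ± 0.23), and CLN3 differed by -0.050 ± 0.31.

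Regulators of lysosome formation and autophagy had 8 genes tested, 4 higher and 4 lower, with a median difference of 0.073 that ran from -0.0038 to 0.26 over the settings and was 0.22 with median centring. With detection required on all 6 arrays the list kept 7 genes, and the median was also 0.22. The kinase ULK1, which starts autophagosome formation and was the dimmest gene of the list, read -2.18, -2.94 and -2.95 in control and -3.59, -4.03 and -3.06 in ischemia kidneys. BECN1, a subunit of the phosphatidylinositol 3-kinase complex of autophagy, read 3.59, 3.54 and 3.65 against 2.91, 3.33 and 3.06. Both had an unadjusted limma p under 0.05, and in both every ischemia kidney was below every control, with differences of -0.87 ± 0.33 and -0.49 ± 0.20 (limma adjusted p = 0.75 and 0.77). ATG5, which conjugates to ATG12 on the growing autophagosome membrane, lay higher without overlap, by 0.43 ± 0.20, and its 3 probes ran from -0.026 to 0.43. TFE3, a transcription factor that activates lysosomal genes, differed by 0.22 ± 0.19, the growth-control kinase MTOR by 0.30 ± 0.19 and the GTPase RRAGA, which brings MTOR to the lysosome, by -0.13 ± 0.28.

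**Figure D5:**
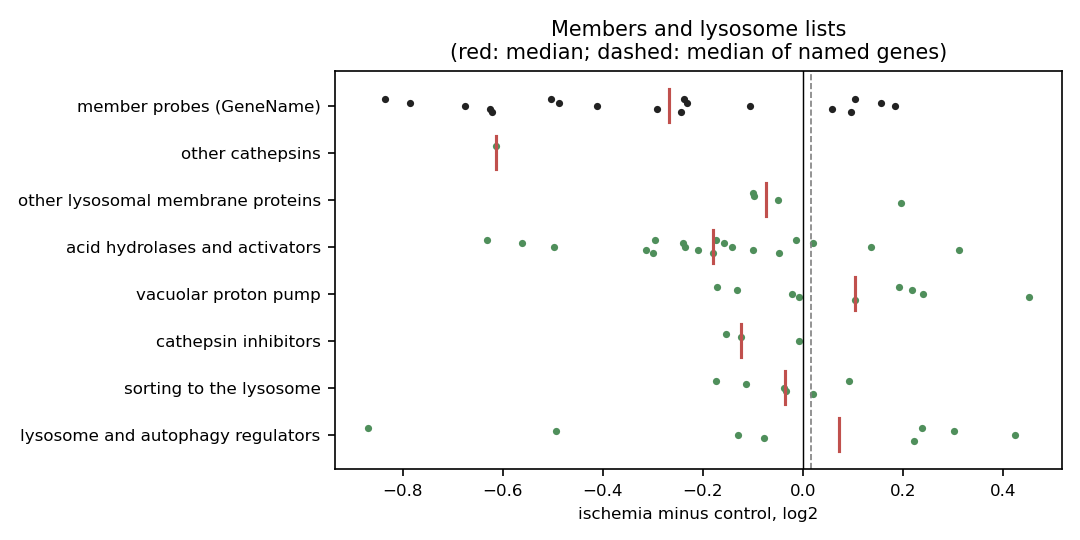
Ischemia minus control difference (log2, horizontal axis) of the 18 member probes (black) and of the tested genes of 7 lysosome lists (green, brightest probe of each gene), with list medians in red and the median of all named genes as a dashed line. Acid hydrolases lie mostly left of 0 (16 of 19) in the values shown, and their median was above 0 in the authors' deposited table; proton pump subunits lie on both sides.

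The genes whose pattern over the 6 kidneys was most like that of the members were found by correlation with the mean of the standardised values of CTSB, CTSD, CTSH, CTSK, CTSZ and LAMP2, 1 brightest probe each. That mean was 0.68, 0.51 and -0.33 in control and -0.21, -0.021 and -0.63 in ischemia kidneys, so it was high in control kidneys 1 and 2 and lowest in ischemia kidney 3. Of 4079 genes compared, 33 had a Pearson correlation above 0.95 with it over these 6 arrays. The closest were ABRAXAS2 (0.986), the ferritin autophagy receptor NCOA4 (0.984), the stress sensor of the endoplasmic reticulum ATF6 (0.981), the creatine transporter SLC6A8 (0.979) and GHITM (0.976). With 6 arrays that share slides and scaling, these values describe likeness and no more.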

How the data were processed

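Total RNA of 6 kidney cortex samples was extracted with a column kit with DNase and labelled with Cy3, per the labels' protocols, with 1 array per kidney. The authors' scanner files hold spot intensity that was background-subtracted and spatially detrended within each array by Agilent Feature Extraction 10.10.1.1, per the file headers. In the submitters' processing notes the version is 11.5.1.1, and R 2.15.2 and limma are listed. Log2 values of 36796 probes per array (medians 5.91 to 5.99) stand in the authors' deposited table, whose centring and normalization are not given in the sources used here and which served only as an alternative.

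The processed signal was put on the log2 scale and each array's 75th percentile was subtracted, without control and outlier spots, averaged over replicate spots. Probes well above background on at least 3 of 6 arrays and with a value on at least 5 were tested (25013 of 43603). Ischemia was compared with control by limma 3.58.1 in R 4.3.3 (lmFit, eBayes, two-sided), adjusted by Benjamini-Hochberg over all tested probes, and checked on simulated data. Precision is limited by the number of arrays. Beyond the name column, symbols came from gene numbers, accessions and older names in the RefSeq table for Sscrofa11.1; in all 11997 probes received a symbol. The files map no probe to a chromosome, so no coordinates are given. Every member probe is named, and of each list up to 3 genes of smallest p in each direction by the brightest probe; the marker genes named, and a sum of lymphocyte markers without CD247, were chosen after their values were seen. Members, lists and tests were chosen with earlier results of these data known. In the main fit, sample numbers were not used to pair the arrays.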

Additional observations from a re-analysis of the deposited data

How the results depend on the processing

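No member probe passed the adjusted threshold under any of the settings tried, and the median difference of the 18 probes stayed below 0 in each, from -0.46 to -0.0012. Centring arrays on their median moved the median of all tested probes by 0.15 to 0.11, and the authors' deposited table moved it by 0.18 to 0.14. Relative to all tested probes, the member median was -0.22 as reported, -0.22 with median centring and -0.14 in the deposited table, which covers 9 of the 18 probes. Probes of the whole array past the adjusted threshold numbered 1 as reported, 11 with median centring (4 higher, 7 lower), 8 with slide as a random block, 3 each with normexp, the deposited table, detection on all 6 arrays and a variance trend, and 0 with quantile normalization, no detection filter or slide as a fixed block. Leaving out 1 kidney gave 0 to 1. Member probes at an unadjusted limma p under 0.05 numbered 1 as reported, 0 with median centring, 2 with quantile normalization, normexp, detection on all 6 arrays, either slide block or a variance trend, 2 of 42 with the probes from other columns, and 0 to 3 without 1 kidney. In the deposited table the number was 1 of 9, a CTSK probe on the higher side. Non-overlapping member probes numbered 2 as reported (0 higher, 2 lower), 1 with median centring (1 higher, 0 lower), 3 of 9 in the deposited table (2 higher, 1 lower), 9 of 42 with the other columns, and 2 to 9 without 1 kidney, the 9 without control kidney 3. In the reported fit 5.89% of all tested probes were higher and 5.02% lower without overlap. Shares of all tested probes were otherwise taken only at unadjusted p with slide as a fixed block. Member counts under the remaining settings are therefore not read as results about the members. Groups also separate more easily with 1 kidney left out. As a replicate block, sample number gave 0 probes of the whole array past the adjusted threshold and left 1 member probe at an unadjusted p under 0.05. Deviations of same-numbered arrays from their group means correlated at -0.35, -0.17 and -0.05. Those of the 2 arrays on a slide correlated at 0.34, 0.10 and 0.33 on slides 1, 2 and 3. Deviations within a group sum to 0, which ties these values together, so they cannot decide whether the numbers pair the kidneys.

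With median centring the difference changed sign for CTSZ (0.044), 5 CTSL1 probes (0.0019, 0.015, 0.031, 0.037 and 0.046) and 1 LAMP2 probe (0.021). In the deposited table it did so for CTSZ (0.14), 3 LAMP2 probes (0.00048, 0.0089 and 0.16), LAMP1 (0.050 and 0.073) and 1 CTSL1 probe (0.038). Leaving out 1 kidney changed the sign of 10 probes. Their ranges were -1.05 to 0.0086 for CTSB at base 1525, -0.027 to 0.12 for CTSK at base 885, -0.42 to 0.12 for CTSZ and -0.36 to 0.033 for 1 LAMP2 probe. For 6 CTSL1 probes they were -0.26 to 0.016, -0.26 to 0.019, -0.30 to 0.033, -0.39 to 0.028, -0.31 to 0.024 and -0.34 to 0.0035. CTSH (-0.83 to -0.37) and CTSS (0.14 to 0.68) kept their sign in every setting run, though the deposited table held only 1 probe of each. In each case the cause was not tested.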
